A study of Mus musculus with 6 samples.

Results

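The transcripts described here encode the nuclear subunits of the respiratory chain and ATP synthase in the mouse line AY-mICC, used as a model of intrahepatic cholangiocarcinoma, the carcinoma of bile ducts inside the liver. They were chosen by gene symbol: Ndufa, Ndufb, Ndufc, Ndufs, Ndufv, Uqcr, Cox4 to Cox8 and Atp5 genes, Sdha to Sdhd and Cyc1. Symbols of pseudogenes were left out, and at least 10 counts in 3 or more of the 6 libraries were required. Of 55414 gene identifiers in the count table, 108 had a matching symbol, 9 of them pseudogene symbols, and 10 more missed the count rule, which left 89 members. They comprise 37 subunits of complex I, 8 complex I assembly factors whose symbols begin with Ndufaf, 4 subunits of complex II and 9 of complex III. The others are 13 subunits of complex IV, 17 genes of complex V and the supercomplex factor Cox7a2l. Among the 17 is Atp5s, also called factor B, which was counted there by its symbol and not as a structural subunit. Of the pseudogene symbols left out, only Ndufb1-ps had more than 2 counts in any library, at 14.2 to 26.3 CPM (counts scaled to library size) in control libraries and 13.1 to 15.3 CPM in knockdown libraries, and it did not pass the test (log2 fold change -0.32, adjusted p = 0.35, edgeR). All 89 passed the filter on low counts of the fit over all genes. Cox6a2 did so only through the shCopa libraries, where it had 17 to 25 counts against 1 to 3 in shCon. Here shCon is the control and shCopa the knockdown. Just inside the count rule lay Cox6b2, with 12 to 25 counts per library, and Cox6a2, and just outside it Cox7a1, with 5 to 14 counts in shCon and 3 to 6 in shCopa.

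RNA-seq compared 3 control libraries (shCon) with 3 libraries of a Copa knockdown (shCopa). The product of Copa is the alpha subunit of COPI, a coat of vesicles on the way back from the Golgi to the endoplasmic reticulum. Both groups were grown in DMEM with fetal bovine serum, the labels name no other treatment, and the short hairpin sequences, the vector and the number of clones behind each group are unknown here. The labels do not say whether the replicates are separate cultures, so p-values measure only the spread between these libraries, which may be technical. Totals of estimated counts were 19634938 to 24546204 per library.

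The inner mitochondrial membrane carries complexes I to IV, which pass electrons from NADH and succinate to oxygen. All of them but complex II pump protons. ATP synthase (complex V), in the same membrane, uses the proton gradient to make ATP. A few core subunits are encoded by mitochondrial DNA. All the others, including every subunit of complex II, are transcribed in the nucleus, translated in the cytosol and imported, so each complex except complex II is assembled from products of both genomes.

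Copa itself was at 420, 517 and 527 CPM in shCon 1, 2 and 3 against 186, 182 and 187 CPM after knockdown, a log2 difference of -1.40 ± 0.11 (SE). The bile duct keratins Krt8, Krt18 and Krt19 were at 522 CPM or more in every library, while Epcam, another marker of that epithelium, stayed below 1 CPM. Of 8 tested markers of bile duct epithelium 5 fell and 0 rose, among them Krt7 (-1.44), Krt18 (-0.44) and Krt8 (-0.34), with a median of -0.39, and without shCon 1, 6 fell, with a median of -0.32. Their sum was 11387 to 14464 CPM in shCon and 8498 to 8976 CPM in shCopa. Summed levels of 6 leukocyte markers were 12.9 to 14.3 CPM in shCon and 15.0 to 16.6 CPM in shCopa, most of it Cd68, and those of 4 endothelial markers 0.0822 to 0.232 and 1.55 to 3.59 CPM. For 6 hepatocyte markers the sums were 8.37 to 13.3 and 22.8 to 24.2 CPM, most of it Alb, and for 5 fibroblast markers 184 to 223 and 168 to 182 CPM, most of it Dcn. These sums moved with the groups, and their part in the results below was not tested. In bulk RNA, fewer cells of a kind and less RNA per cell cannot be told apart. The library shCon 1 stood apart from its group, with r = 0.9734 and 0.9719 against shCon 2 and 3 on the log2 scale over tested genes, where other pairs within a group reached 0.9888 to 0.9907. The counts, medians and main changes below are therefore given with and without shCon 1. Copa was at -1.499 ± 0.051 without it.

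Most respiratory chain transcripts had lower fitted levels in shCopa, but fewer than 1 in 3 passed the test with all 6 libraries. The number that passed changed when any single library of either group was left out. With all 6 libraries, 23 of the 89 members (25.8%) fell and 2 rose (2.25%) in edgeR's quasi-likelihood test at an adjusted p under 0.05. Over all 14807 genes tested, 18.4% fell and 18.2% rose, 36.5% in all. Without shCon 1, 50 members fell (56.2%) and 6 rose (6.74%), against 27.0% and 28.3% of 15273 genes, 55.3% in all. The median log2 fold change of the members, shCopa minus shCon, was -0.57 with all libraries and -0.23 without shCon 1, beside -0.01 and 0.01 over all genes tested. Below 0 were 81 of 89 members with all libraries and 75 without shCon 1. In 65 members (73.0%) every shCopa library lay below every shCon library, as it did for 26.9% of all genes tested, and in 2 members every one lay above (27.2% of all genes). Without shCon 1 these counts were 65 and 7, beside 34.3% and 35.8% of all genes.

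The excess of lower calls over the background was not kept in every setting. Without shCopa 1, 2 or 3 in turn, 6, 8 and 5 members fell (6.74%, 8.99% and 5.62%), below the 11.8%, 11.6% and 11.6% of all genes that fell in those fits. With the replicate number as a block, 11 fell (12.4%), near the 13.1% of all genes. Without shCon 2 or 3, 34 and 38 fell (38.2% and 42.7%), above 15.4% and 16.6% of all genes. The median of the members was -0.60 to -0.50 with the block and without each shCopa library.

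**Figure D1:**
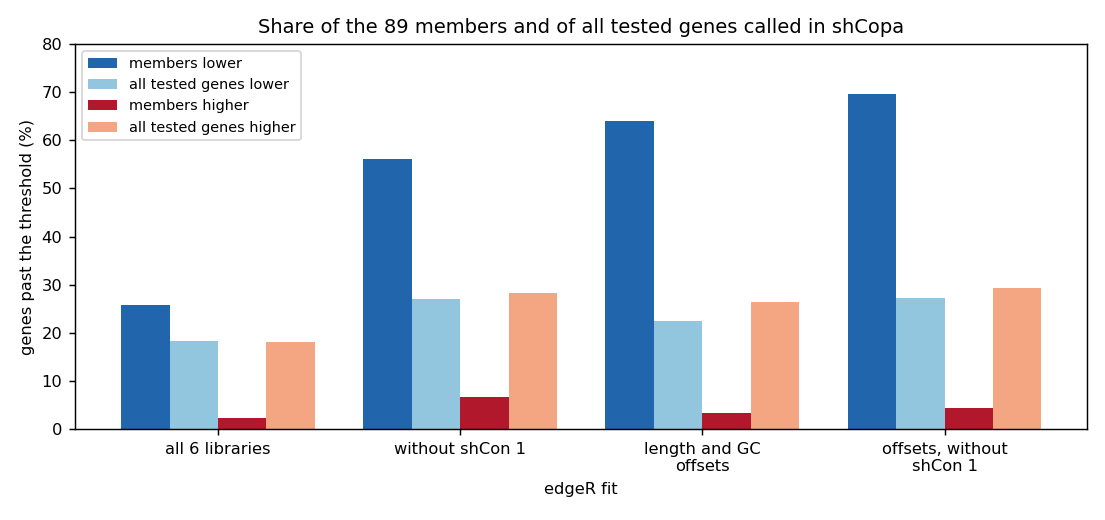
Share of the 89 members and of all tested genes (vertical axis, percent) called lower or higher in shCopa in 4 edgeR fits (horizontal axis): all 6 libraries, without shCon 1, with offsets for transcript length and GC content, and with both. The share of members called lower is above that of all genes in each of these 4 fits, at 25.8% against 18.4% with all 6 libraries and 56.2% against 27.0% without shCon 1.

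The members that fell with all 6 libraries were Ndufab1, Ndufb2, Ndufb10, Ndufb7, Ndufb8, Ndufv3, Ndufb5, Ndufv1, Ndufb11, Ndufv2, Ndufa10 and Ndufa9 of complex I, Sdha, Sdhb and Sdhc of complex II, Uqcrb of complex III, Cox6a1 and Cox5a of complex IV, and Atp5h, Atp5o, Atp5f1, Atp5c1 and Atp5a1 of ATP synthase. Their log2 fold changes ran from -1.97 to -0.28, which left 25.6% to 82.2% of the control level. All 23 also fell without shCon 1, where their changes ran from -1.32 to -0.23 and their levels from 40.1% to 85.3% of shCon 2 and 3. A further 27 passed the test only without shCon 1, with changes of -0.44 to -0.18 there: Ndufa6, Ndufa7, Ndufa11, Ndufa13, Ndufb4c, Ndufb9, Ndufc1, Ndufs1, Ndufs5, Ndufs6, Ndufs8, Sdhd, Cyc1, Uqcr11, Uqcrc1, Uqcrfs1, Uqcrh, Cox6b1, Cox6c, Cox7a2, Cox7b, Cox8a, Cox7a2l, Atp5g3, Atp5j, Atp5j2 and Atp5l. With all 6 libraries the same 27 had larger fitted changes, -0.95 to -0.24, and a wider spread within shCon. Another 33 members passed in neither fit.

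**Figure D2:**
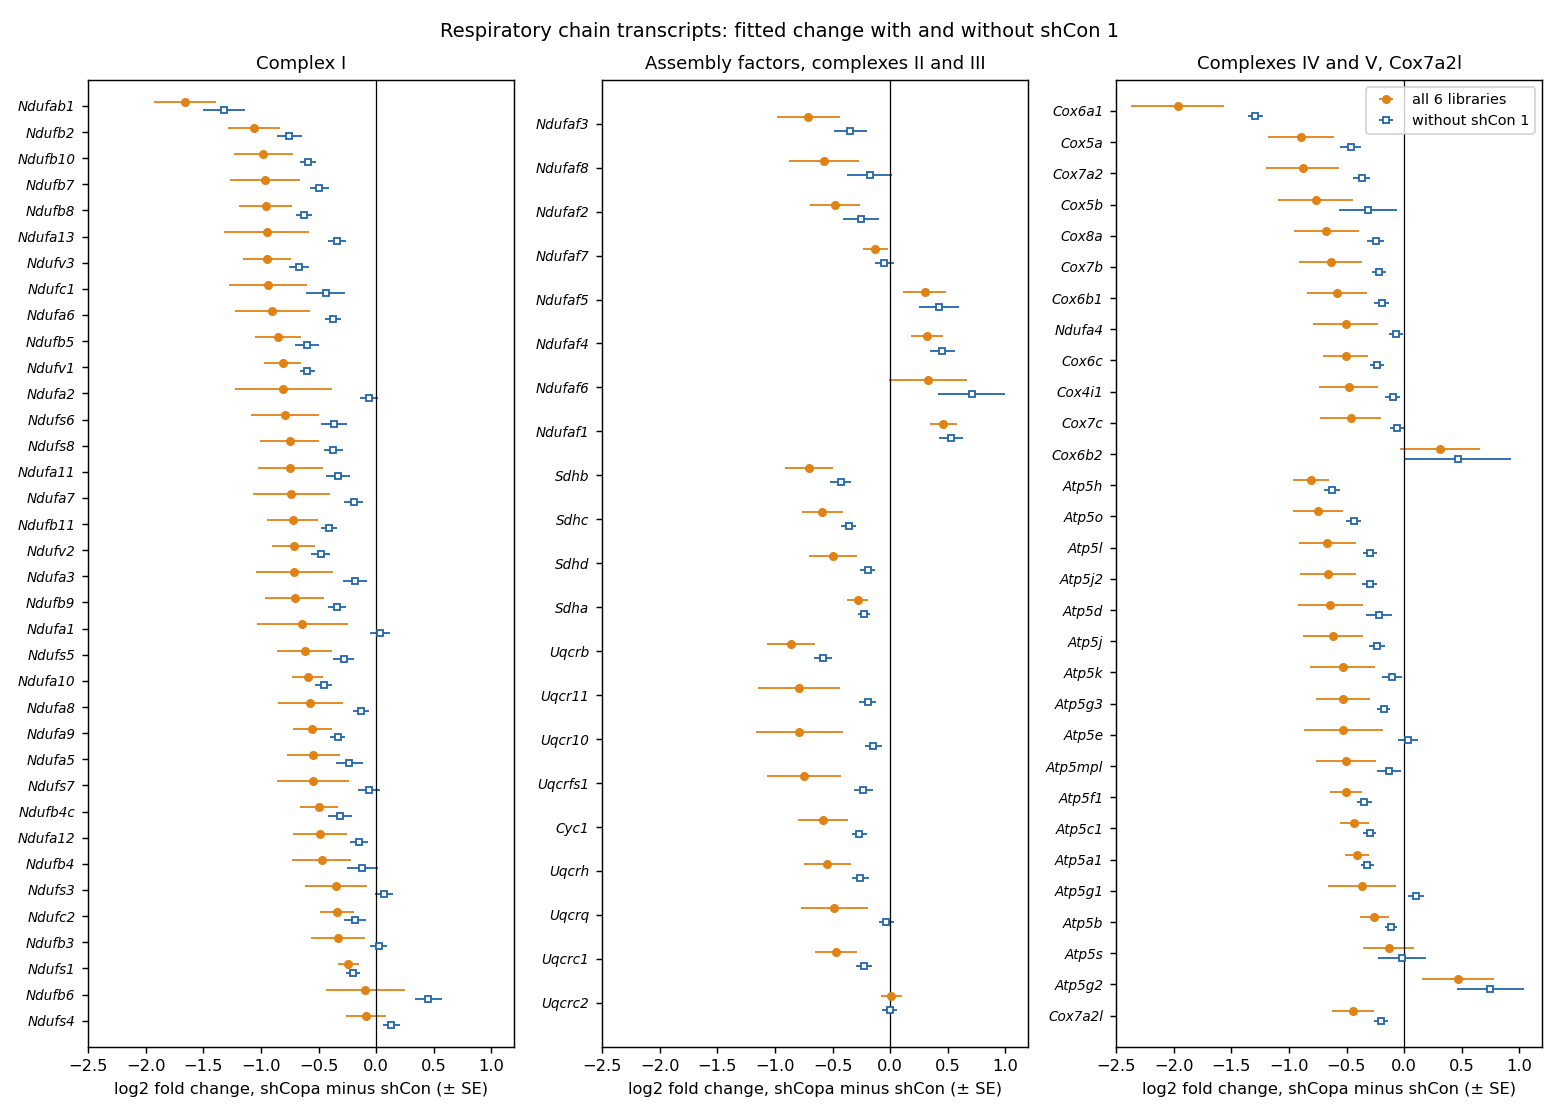
Fitted log2 fold change, shCopa minus shCon (horizontal axis), for 87 members in 3 panels by complex; circles show all 6 libraries, squares leave out shCon 1, and bars are the SE. Cox6a2, at 3.17, lies outside the axis and is not drawn, and 1 further member is left out. Nearly all circles lie left of 0, and most squares lie closer to it with shorter bars. Ndufaf1, Ndufaf4, Ndufaf5, Ndufaf6, Cox6b2 and Atp5g2 lie to the right in both fits, their squares farther from 0 than their circles.

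Across libraries, the sum of all members was 11707 CPM in shCon 1, 7057 in shCon 2 and 7026 in shCon 3, and 5747, 6132 and 6063 CPM in shCopa 1 to 3. The shCopa mean was thus 69.6% of the mean of all shCon libraries and 84.9% of that of shCon 2 and 3. shCon 1 was above the mean of shCon 2 and 3 in 88 of 89 members, Uqcrc2 being the exception, with a median ratio of 1.83 and a range of 0.98 to 3.04. It was the highest of the 6 libraries in 82. On the scale of log2(CPM + 0.5) relative to shCon 2 and 3, the median member was at 0.85 in shCon 1 and at -0.27, -0.19 and -0.19 in the shCopa libraries. The 3 shCopa libraries were thus alike and lay on the other side of shCon 2 and 3 from shCon 1. The median of all tested genes was within 0.01 of 0 in each library on the same scale.

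**Figure D3:**
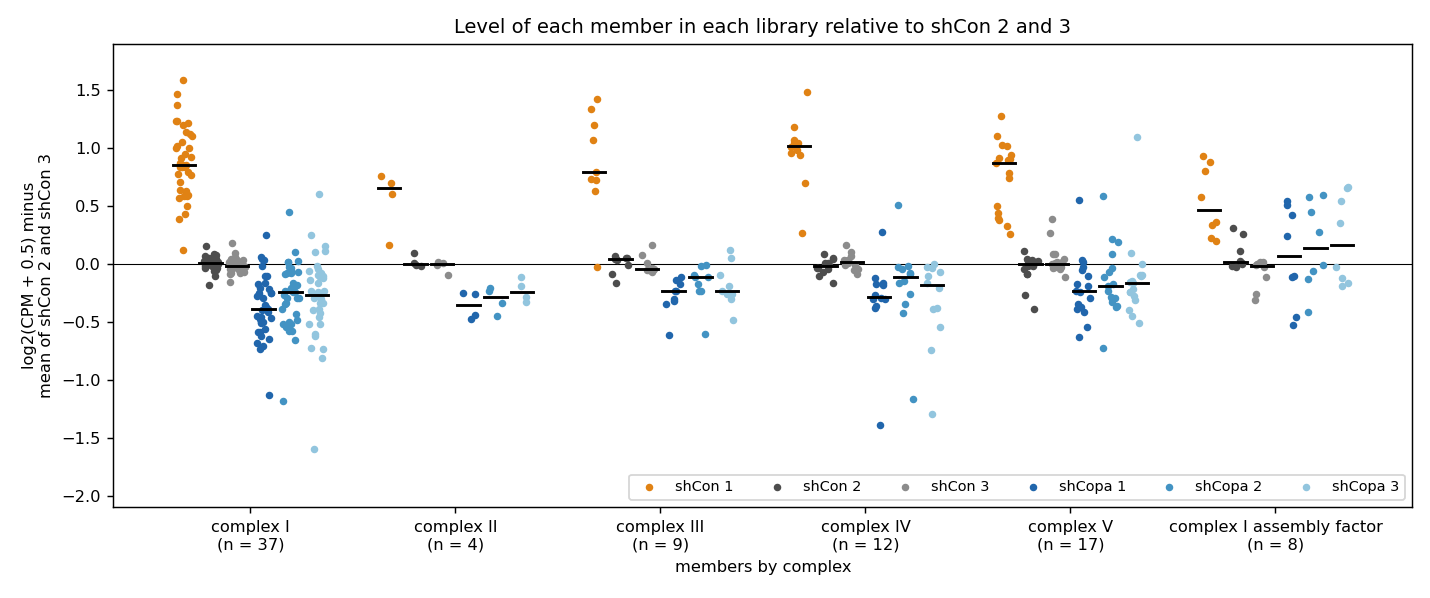
Level of each of 87 members in each library on the scale of log2(CPM + 0.5) minus the mean of shCon 2 and 3 (vertical axis), by complex (horizontal axis); points are members, black bars medians, and Cox6a2 and Cox7a2l are not drawn. shCon 1 lies above 0 in every complex and the shCopa libraries below it in complexes I to V, whereas the medians of the assembly factors lie above 0 in all 3 shCopa libraries.

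Transcript length accompanied the position of shCon 1. The members' transcripts, taken as the longest principal transcript of each gene, had a median length of 875 bases, from 371 to 4715, against 2920 bases over all genes tested. For the 1107 tested genes under 1000 bases, the median log2 ratio of shCon 1 to shCon 2 and 3 was 0.55, and for the 49 members among them 0.94. In all genes of 4000 bases and over it was -0.32. Of those 1107 short genes, 12.7% fell with all libraries and 17.0% without shCon 1, while 18.4% and 53.1% of the 49 short members did. Without shCon 1 the median change of the short genes was 0.10 and that of the short members -0.23. The median of the members was also -0.22 to -0.23 in each of the 5 length classes below 4000 bases. With offsets for trends on length and GC content within each library, 57 members fell and 3 rose, beside 22.4% and 26.4% of all genes. With a first definition of length, the median over a gene's coding transcripts, 39 fell and 2 rose, beside 3023 and 3504 of 14807 genes. The change from the median to the principal transcript was made after the result with the median had been seen, because the medians of some members were implausibly short. The principal transcripts of some members are in turn long for these genes, at 4371 bases for Ndufb2, 3479 for Ndufab1 and 4715 for Atp5g1. Ndufb2 and Atp5g1 are the 2 members of 4000 bases and over, so the lengths behind the offsets are uncertain under both definitions. Offsets without shCon 1 gave 62 lower and 4 higher members, beside 27.2% and 29.4% of all genes. The part of transcript length in the level of shCon 1 was not tested beyond these values.

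**Figure D4:**
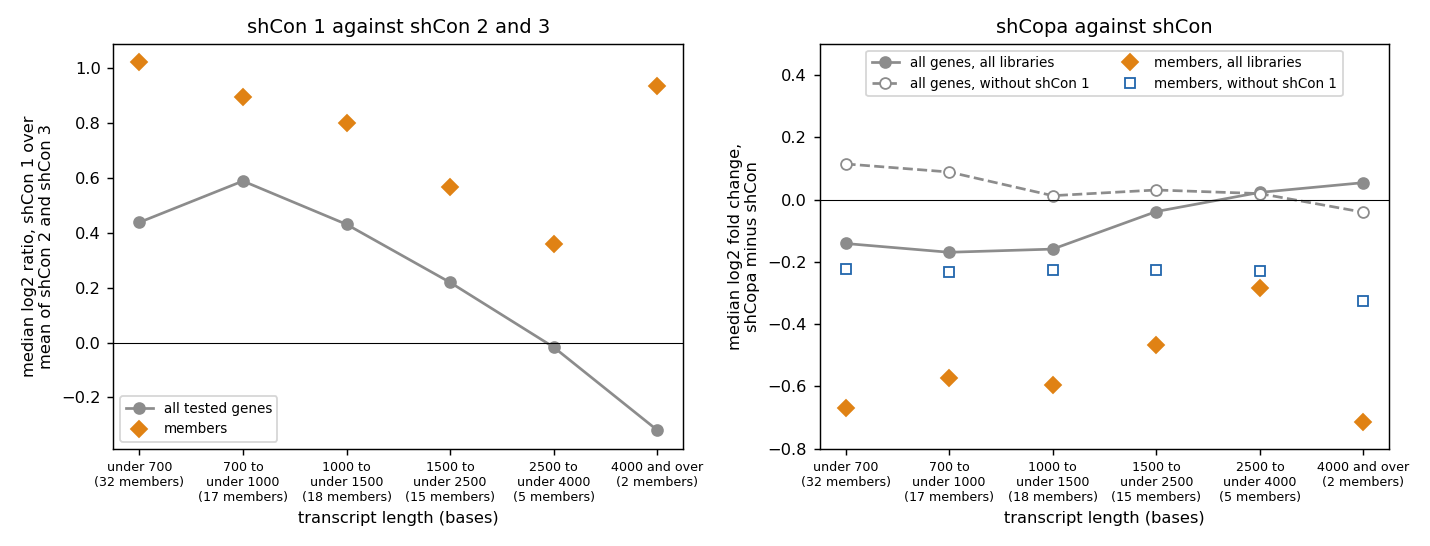
Medians by class of transcript length (horizontal axis, bases, with the number of members in each class). The left panel shows the log2 ratio of shCon 1 to the mean of shCon 2 and 3, which over all tested genes (gray) is highest at 700 to under 1000 bases and falls with length from there on, and which is higher for the members (orange) in each class. In the right panel, the log2 fold change of shCopa against shCon, the members lie below all genes in each class with all libraries and without shCon 1. The longest class holds 2 members.

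The 5 members that fell at an adjusted p under 0.01 with all 6 libraries (edgeR) were Cox6a1, Ndufab1, Ndufb2, Ndufv1 and Atp5h. Cox6a2 also passed that threshold, but it rose, and no promoter window was matched to it. The promoters of the 5 are shown because these had the lowest adjusted p among the members that fell with all 6 libraries. Without shCon 1, 38 members fell at an adjusted p under 0.01 in edgeR, so the choice rests on the fit that includes shCon 1. The upstream sequences of transcripts that fell together can thus be read side by side. Each line gives the 250 bases before the start of the RefSeq transcript, 5′ to 3′ on the gene's strand, in build GRCm38.p6: Cox6a1 at chr5:115348959-115349208 (minus strand), Ndufab1 at chr7:122101849-122102098 (minus strand), Ndufb2 at chr6:39592315-39592564 (plus strand), Ndufv1 at chr19:4012756-4013005 (minus strand) and Atp5h at chr11:115419920-115420169 (minus strand). Capitals mark a match to 1 of 3 motifs of factors known to act at respiratory genes, searched on both strands: CGCATGCG for the core of the NRF1 site, which reads the same on both strands and was counted once, CCGGAAGT for the ETS family to which GABP belongs, and AAGATGGC for YY1.
Cox6a1: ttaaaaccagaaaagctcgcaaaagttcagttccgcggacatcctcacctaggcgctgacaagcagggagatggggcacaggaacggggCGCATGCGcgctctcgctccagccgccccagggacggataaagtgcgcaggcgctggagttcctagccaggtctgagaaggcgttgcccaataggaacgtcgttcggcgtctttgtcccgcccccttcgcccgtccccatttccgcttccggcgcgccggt
Ndufab1: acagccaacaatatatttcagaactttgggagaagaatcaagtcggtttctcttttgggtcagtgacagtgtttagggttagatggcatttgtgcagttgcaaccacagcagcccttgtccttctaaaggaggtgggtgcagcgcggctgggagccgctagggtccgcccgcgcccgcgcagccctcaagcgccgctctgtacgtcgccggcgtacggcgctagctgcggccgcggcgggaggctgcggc
Ndufb2: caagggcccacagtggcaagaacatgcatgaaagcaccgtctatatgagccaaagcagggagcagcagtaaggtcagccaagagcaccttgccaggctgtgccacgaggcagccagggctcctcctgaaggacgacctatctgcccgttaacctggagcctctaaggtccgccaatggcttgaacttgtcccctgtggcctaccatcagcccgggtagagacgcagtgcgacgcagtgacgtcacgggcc
Ndufv1: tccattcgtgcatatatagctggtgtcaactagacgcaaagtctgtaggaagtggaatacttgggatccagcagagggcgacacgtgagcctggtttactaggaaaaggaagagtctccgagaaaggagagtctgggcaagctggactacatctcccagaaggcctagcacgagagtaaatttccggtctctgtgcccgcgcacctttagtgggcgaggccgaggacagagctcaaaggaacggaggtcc
Atp5h: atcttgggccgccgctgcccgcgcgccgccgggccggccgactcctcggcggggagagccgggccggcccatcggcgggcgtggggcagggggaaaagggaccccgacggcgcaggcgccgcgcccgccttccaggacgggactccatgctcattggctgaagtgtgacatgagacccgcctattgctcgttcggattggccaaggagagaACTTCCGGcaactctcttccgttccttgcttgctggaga

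Cox6a1 held the NRF1 core, from base 90 of its window, and Atp5h held the ETS motif on the minus strand of the window, from base 212. No match to the 3 motifs lay in the windows of Ndufab1, Ndufb2 and Ndufv1, which says only that these letters are not there. For 71 of the 89 members a window of 300 bases was matched by symbol, 250 before and 50 after the start, as for 27025 genes in all. The latter were not limited to the 14807 tested genes, and shares over tested genes alone were not counted. The NRF1 motif lay in 10 of the 71 (14.1%) and in 1.91% of all windows, the ETS motif in 5 (7.04%) and in 4.0%, and the YY1 motif in 9 (12.7%) and in 2.88%. At least 1 motif lay in 23 members (32.4%) and in 8.36% of all windows, and Uqcr11 held both the NRF1 and the ETS motif. Among the 19 members that fell with all 6 libraries and had a window, 1 held the NRF1 motif, Cox6a1, 1 the ETS motif, Atp5h, and 2 the YY1 motif, Ndufa9 and Ndufb8. The NRF1 site was first searched in a longer form, the core with a G before and a C after it, which lay in 7 members (9.86%) and in 0.977% of all windows, and with it at least 1 of the 3 motifs lay in 21 members (29.6%) and in 7.57%. The motifs, both NRF1 forms and the windows shown were chosen after the values had been seen, and a match is a description, not a binding site.

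Complex I takes electrons from NADH in an arm that protrudes into the matrix and pumps protons through an arm in the membrane. Of its 37 measured subunits 12 fell, 0 rose and 25 did not pass, with a median log2 fold change of -0.71. The count of 0 higher subunits, here and in complexes II, III and V, was the same in edgeR at an unadjusted p under 0.05, in DESeq2 and in limma-voom. Without shCon 1, 23 fell and Ndufb6 rose, with a median of -0.33. Their summed level in shCopa was 64.6% of shCon and 81.6% of shCon 2 and 3. The largest change was that of Ndufab1, the mitochondrial acyl carrier protein, which is also needed for fatty acid synthesis and iron-sulphur cluster formation in the matrix. Ndufab1 (ENSMUSG00000030869) was at 105, 51.0 and 66.1 CPM in shCon 1, 2 and 3 and at 26.2, 25.2 and 18.9 CPM in shCopa 1, 2 and 3. The groups did not overlap, with a clear gap between the lowest shCon and the highest shCopa library. Its log2 fold change was -1.66 ± 0.27 (SE), with an adjusted p of 0.00308 in edgeR, and -1.32 ± 0.18 without shCon 1.

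The matrix arm begins with Ndufv1, the flavoprotein that accepts electrons from NADH, and its iron-sulphur partners Ndufv2 and Ndufs1. Ndufv1 was at 95.3, 65.0 and 63.3 CPM in shCon, against 42.5, 42.7 and 42.1 in shCopa. All shCopa libraries lay together, below the lowest control. The log2 fold change of Ndufv1 was -0.81 ± 0.16 (adjusted p = 0.00742, edgeR) and -0.60 ± 0.065 without shCon 1. Ndufv2 changed by -0.72 and -0.48 on the same scale. Ndufs1 missed the threshold with all libraries at -0.24 (adjusted p = 0.0693, edgeR) and fell by 0.20 without shCon 1. Of the core subunits that lead electrons on to ubiquinone, Ndufs3, Ndufs7 and Ndufs8 did not pass with all libraries, at -0.35, -0.55 and -0.75. Ndufs8 was at 81.4, 42.5 and 42.9 CPM in shCon, and the shCopa libraries had 30.8, 36.2 and 32.2. Its groups did not overlap, and it fell by 0.37 without shCon 1. Ndufs3 and Ndufs7 overlapped between the groups.

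Accessory subunits of the Ndufb series line the part of the membrane arm farthest from the matrix arm. Among 11, 6 fell with all libraries (Ndufb2, Ndufb5, Ndufb7, Ndufb8, Ndufb10 and Ndufb11), with a median of -0.72 over the series, and 8 fell and 1 rose without shCon 1, with a median of -0.41. Ndufb2 was at 32.1, 19.2 and 18.0 CPM in shCon, with 11.2, 11.6 and 10.4 CPM in shCopa. Its groups were separate, and its log2 fold change was -1.06 ± 0.23 (adjusted p = 0.00961, edgeR) and -0.75 ± 0.11 without shCon 1. Ndufb10 was at 103, 52.9 and 53.0 CPM among controls and 33.6, 35.4 and 36.8 CPM in shCopa. The 3 shCopa libraries lay below the controls, with a log2 fold change of -0.98 ± 0.26 (adjusted p = 0.0219, edgeR) and -0.59 ± 0.071 without shCon 1. Ndufb6 went the other way once shCon 1 was left out. It was at 31.5, 13.7 and 12.6 CPM in shCon, against 15.7, 18.2 and 20.2 in shCopa, so shCon 1 was the highest and shCon 2 and 3 the lowest of the 6 libraries. Its change was -0.09 with all libraries and 0.45 ± 0.12 without shCon 1 (adjusted p = 0.00337, edgeR). Ndufb4 and Ndufb4c are near-identical genes between which reads may have been divided. Neither passed with all libraries, at -0.47 and -0.50.

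Among 12 accessory Ndufa subunits, Ndufa9 and Ndufa10 fell with all libraries, at -0.55 and -0.60, and 6 fell without shCon 1. Ndufa9 sits where the arms of the complex meet. The other 10 were at -0.95 to -0.48 with SEs of up to 0.42. Ndufa2 illustrates that spread, at 91.5, 30.2 and 30.0 CPM in shCon and 27.9, 29.6 and 29.2 CPM in shCopa, where 1 library makes nearly all of the difference. Ndufa2 had a log2 fold change of -0.80 with all libraries and -0.06 without shCon 1. Of the other accessory subunits, Ndufv3 fell in both fits, at -0.95 and -0.67. Ndufs4, a subunit needed for the stability of the NADH-binding module, was at -0.09 and 0.13 and passed in neither. The subgroups by role, here and in ATP synthase, were set after the values had been seen. Their counts stand beside 18.4% of all genes lower with all libraries and 27.0% without shCon 1.

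Complex I assembly factors assist in building the complex and are not part of it. Of 8, Ndufaf1 rose, 0 fell and 7 did not pass in edgeR, and the median was 0.08. At an unadjusted p under 0.05 1 was lower, as in DESeq2, and in limma-voom 0 were. Without shCon 1, Ndufaf1, Ndufaf4, Ndufaf5 and Ndufaf6 rose and none fell, with a median of 0.18. Their summed level in shCopa was 97.2% of shCon and 110% of shCon 2 and 3. Ndufaf1, which acts in the assembly of the membrane arm, was at 15.0, 12.8 and 13.1 CPM in shCon, and the shCopa libraries had 17.5, 19.6 and 19.2. All 3 shCopa libraries were above all 3 controls, shCon 1 included. The log2 fold change of Ndufaf1 was 0.46 ± 0.12 (adjusted p = 0.018, edgeR) and 0.53 ± 0.11 without shCon 1. Ndufaf4, which acts early on the quinone-side module, was at 16.2, 12.6 and 12.5 CPM in shCon, with 18.0, 17.3 and 16.1 CPM in shCopa, with changes of 0.32 and, without shCon 1, 0.45. Ndufaf5, which modifies the core subunit Ndufs7, was at 0.30 and 0.42. Ndufaf6 had 1.19 to 3.16 CPM, and its changes were 0.33 and 0.71. Ndufaf3, the partner of Ndufaf4, was at -0.71 and -0.34 and passed in neither fit.

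Complex II, succinate dehydrogenase, links the tricarboxylic acid cycle to the chain and has only nuclear subunits. Sdha, Sdhb and Sdhc fell with all libraries and all 4 subunits fell without shCon 1. Sdha, the flavoprotein that oxidizes succinate, was at 274, 242 and 248 CPM among controls and 206, 208 and 214 CPM in shCopa. Here shCon 1 was close to the other controls and the groups did not overlap. Its log2 fold change was -0.28 ± 0.088 (adjusted p = 0.0391, edgeR) and -0.23 ± 0.053 without shCon 1. Sdhb, the iron-sulphur subunit, was at 47.4, 30.9 and 27.1 CPM in shCon, against 20.7, 21.1 and 23.0 in shCopa, a change of -0.70 and, without shCon 1, of -0.43. Of the membrane anchors, Sdhc was at 131, 86.0 and 85.1 CPM in shCon, and the shCopa libraries had 62.8, 67.6 and 70.2, a change of -0.59 and -0.36. Sdhd was at 162, 94.4 and 96.0 CPM in shCon, with 79.5, 82.3 and 88.1 CPM in shCopa, a change of -0.49 that did not pass (adjusted p = 0.105, edgeR) and of -0.20 that did without shCon 1 (adjusted p = 0.0111). In each of the 4 genes all shCopa libraries lay below all controls, as they did in 26.9% of all genes tested.

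Complex III passes electrons from ubiquinol to cytochrome c. Of 9 subunits only Uqcrb fell with all libraries, and 6 fell without shCon 1, with medians of -0.58 and -0.23. Uqcrb, a small subunit at the ubiquinone site, was at 79.3, 45.2 and 50.7 CPM among controls and 31.2, 31.3 and 34.0 CPM in shCopa. The groups were separate, with a log2 fold change of -0.86 ± 0.21 (adjusted p = 0.015, edgeR) and -0.58 ± 0.078 without shCon 1. Cyc1, which is cytochrome c1, was at 143, 85.3 and 79.5 CPM in shCon, against 66.0, 72.9 and 66.5 in shCopa. It was at -0.58 with all libraries (adjusted p = 0.0741, edgeR) and fell by 0.27 without shCon 1 (adjusted p = 0.00183). Uqcrfs1, the Rieske iron-sulphur protein, was at -0.75 and, past the threshold only without shCon 1, at -0.23. The core proteins differed from each other. Uqcrc1 was at -0.47 and, again past the threshold only without shCon 1, at -0.23. Uqcrc2, the most abundant complex III transcript by CPM, was at 138, 141 and 142 CPM in shCon, and the shCopa libraries had 130, 140 and 154. It was the 1 member in which shCon 1 was not above the mean of shCon 2 and 3, its groups overlapped, and its log2 fold change was 0.01 ± 0.092.

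Complex IV, cytochrome c oxidase, reduces oxygen, and its nuclear subunits surround a core of mitochondrial origin. Of 13 measured, Cox6a1 and Cox5a fell, Cox6a2 rose and 10 did not pass, with a median of -0.58. Without shCon 1, 7 fell and Cox6a2 rose, with a median of -0.22. The summed level in shCopa was 60.8% of shCon and 82.4% of shCon 2 and 3. Cox6a1 (ENSMUSG00000041697), the widely expressed isoform of subunit VIa, showed the largest fall of any member with all 6 libraries, while without shCon 1 Ndufab1 fell slightly more. It was at 369, 136 and 128 CPM in shCon, with 50.2, 58.5 and 53.4 CPM in shCopa. Even shCon 2 and 3 were more than 2-fold above every shCopa library. The log2 fold change was -1.97 ± 0.40 (adjusted p = 0.00803, edgeR), and without shCon 1 it was -1.29 ± 0.067 (adjusted p = 1.41e-11), or 40.8% of the control level. Cox5a, a matrix-side subunit, was at 153, 65.8 and 82.8 CPM among controls and 56.7, 55.02 and 50.4 CPM in shCopa, with a change of -0.89 ± 0.29 (adjusted p = 0.0453, edgeR) and -0.46 ± 0.091 without shCon 1.

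Cox6a2, the isoform known from heart and skeletal muscle, was at 0.139, 0.129 and 0.0411 CPM in shCon, against 1.11, 0.908 and 0.860 in shCopa. The libraries did not overlap, but these levels rest on 7 counts in all of shCon and 63 in all of shCopa, a ratio of 9.84 after library size, with a 95% interval of 4.51 to 25.5 that covers counting error only. Its fitted log2 fold change was 3.17 ± 0.46 (adjusted p = 0.0018, edgeR), a call that rests on its having passed the low-count filter through shCopa alone, and it was not tested under the filter of 1 CPM. Without shCon 1 it was at 3.43 ± 0.66. Of the reads of both Cox6a genes, Cox6a2 held 0.0322% to 0.0943% in shCon and 1.53% to 2.16% in shCopa, so Cox6a1 made up nearly all of them in both groups. Cox6b1 was at 200, 101 and 105 CPM in shCon, and the shCopa libraries had 83.5, 91.8 and 95.6. Its testis isoform Cox6b2 was at 0.836, 0.644 and 0.575 CPM in shCon, with 0.841, 1.08 and 0.607 CPM in shCopa, overlapping, and held 0.416% to 0.635% and 0.631% to 1.16% of Cox6b reads. Cox4i1, the most abundant complex IV transcript by CPM, was at 417, 231 and 204 CPM among controls and 192, 210 and 207 CPM in shCopa. Its groups overlapped and its change was -0.48 ± 0.25 (adjusted p = 0.177, edgeR) and -0.10 without shCon 1. Cox4i2, the isoform known from lung, had no count in shCon and 2 in each shCopa library, at or under 3 counts.

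Cox7a2 was at 94.9, 41.2 and 41.7 CPM in shCon, against 32.2, 32.6 and 31.7 in shCopa, which did not overlap. The change of Cox7a2 was -0.88 ± 0.32 (adjusted p = 0.0649, edgeR) and -0.37 ± 0.072 without shCon 1. Its relative Cox7a2l, which joins complexes III and IV into supercomplexes, was at 148, 97.8 and 91.1 CPM in shCon, and the shCopa libraries had 82.9, 80.2 and 84.0, with changes of -0.45 and -0.20. The muscle isoform Cox7a1 was at 0.650, 0.215 and 0.575 CPM in shCon, with 0.133, 0.259 and 0.253 CPM in shCopa, overlapping. Cox8a was at 283, 139 and 138 CPM among controls and 113, 132 and 106 CPM in shCopa, with changes of -0.67 and, past the threshold only here, -0.25 without shCon 1. Cox8b and Cox8c had no count in any library. Ndufa4, named after complex I but now counted with complex IV, was at 251, 118 and 125 CPM in shCon, against 109, 119 and 119 in shCopa. It overlapped between the groups, with a change of -0.51 and, without shCon 1, of -0.07. Its relative Ndufa4l2, a target of the response to low oxygen, had 0 to 2 counts per library.

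**Figure D5:**
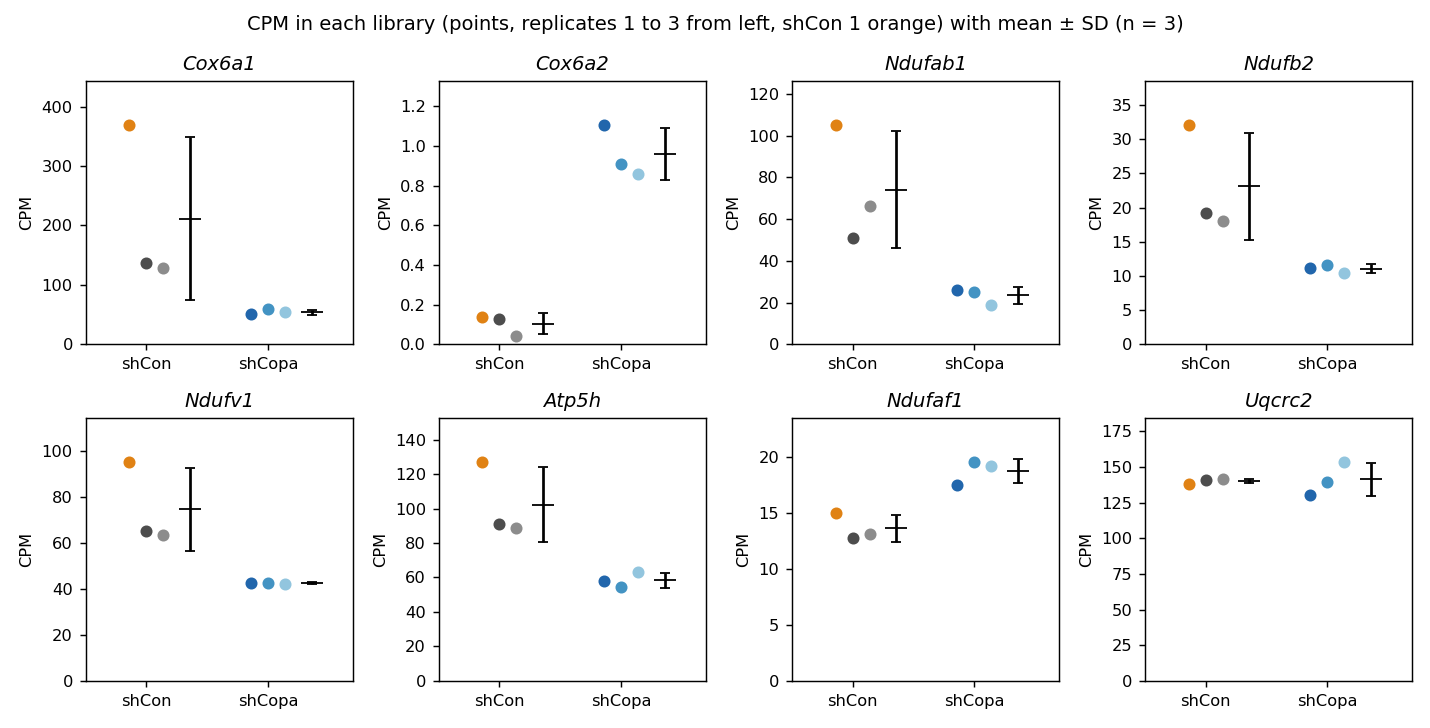
CPM (vertical axes, from 0) of 8 members in each library; points are replicates 1 to 3 from left, with shCon 1 in orange, and bars show the mean ± SD (n = 3). In Cox6a1, Ndufab1, Ndufb2, Ndufv1 and Atp5h all shCopa points lie below all shCon points, in Cox6a2 and Ndufaf1 above them, and in Uqcrc2 the groups overlap.

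ATP synthase has a catalytic head in the matrix, a membrane rotor of c subunits and a peripheral stalk that holds the head still. Of 17 members 5 fell and 12 missed the threshold, with a median of -0.53, and 9 fell without shCon 1, with a median of -0.22. The peripheral stalk held 3 of the 5 (Atp5h, Atp5o and Atp5f1), and all 4 stalk genes fell without shCon 1, where Atp5j was at -0.23. Over all genes tested, 18.4% fell with all libraries and 27.0% without shCon 1. The stalk was set apart as a subgroup after the values had been seen. Atp5h, subunit d of the stalk, was at 127, 91.1 and 88.6 CPM in shCon, and the shCopa libraries had 57.8, 54.3 and 63.1. Its shCopa libraries lay well below all controls, and the log2 fold change was -0.81 ± 0.16 (adjusted p = 0.00609, edgeR) and -0.63 ± 0.068 without shCon 1. Atp5o, which joins the stalk to the head, was at 144, 84.3 and 82.5 CPM in shCon, with 57.2, 64.5 and 63.4 CPM in shCopa. Its change was -0.75 ± 0.22 (adjusted p = 0.0315, edgeR) and -0.44 ± 0.066 without shCon 1. Atp5f1, subunit b, was at 158, 112 and 120 CPM among controls and 86.9, 90.5 and 98.2 CPM in shCopa. The groups of Atp5f1 were separate, and the changes were -0.50 and -0.34.

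In the catalytic head, Atp5a1 (alpha) and Atp5c1 (gamma) fell, by 0.41 and 0.43 on the log2 scale with all libraries and by 0.32 and 0.30 without shCon 1. Atp5b (beta) had the highest level of all members, also per length, at 618 CPM per kilobase in shCon and 517 in shCopa. It was at 1410, 1089 and 1050 CPM in shCon, against 952, 1019 and 999 in shCopa, where the groups did not overlap but passed in neither fit (-0.26 ± 0.13 and -0.12 ± 0.053, adjusted p = 0.155 and 0.0726, edgeR). Subunit c is made as the same mature protein from 3 genes. Atp5g1 was at 122, 57.9 and 55.2 CPM in shCon, and the shCopa libraries had 57.3, 64.4 and 60.6. Atp5g2 was at 9.85, 4.21 and 7.60 CPM in shCon, with 8.54, 8.77 and 12.7 CPM in shCopa. Atp5g3 was at 227, 122 and 126 CPM among controls and 105, 108 and 115 CPM in shCopa. In edgeR 0 of the 3 passed with all libraries, at -0.37, 0.47 and -0.53, with 0 also at an unadjusted p under 0.05 and in DESeq2 and limma-voom, and only Atp5g3 did without shCon 1, at -0.18. Of all reads of the 3 genes, Atp5g3 held 63.2% to 66.7% in shCon and 59.7% to 61.5% in shCopa, and Atp5g2 2.29% to 4.03% and 4.83% to 6.73%, both without overlap.

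Within a library, the share of a member in the summed CPM of its complex does not change if all its members are higher by the same factor. In shCon 1 that factor differed between members, with ratios to shCon 2 and 3 of 0.98 to 3.04. Shares in shCon 1 are therefore not free of its shift. Cox6a1 made up 15.0%, 11.6% and 10.7% of complex IV transcripts in shCon 1 to 3 and 5.30%, 5.69% and 5.55% in shCopa 1 to 3. Ndufab1 made up 3.58%, 3.10% and 4.02% of complex I in shCon and 2.05%, 1.83% and 1.38% in shCopa. The shares of Ndufb2, Ndufb10, Uqcrb, Atp5h and Atp5o were likewise lower in all shCopa libraries than in all shCon libraries, and those of Ndufv1 and Cox5a overlapped. Uqcrc2 made up 10.9%, 19.7% and 19.9% of complex III in shCon and 21.6%, 21.5% and 23.7% in shCopa. In complex IV, 2 of 13 shares were lower and 7 higher in all shCopa libraries, and in complex I, 9 and 8 of 37. Shares of a complex sum to 100%, so the fall of an abundant member raises the shares of the others.

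Other genes of the pathway were taken from lists fixed with the design. Of the 13 protein genes of the mitochondrial genome, mt-Cytb and mt-Nd4 fell, by 0.59 and 0.49 on the log2 scale, and 11 did not pass, with a median of -0.18. Without shCon 1, 5 fell, by 0.62 for mt-Cytb, 0.58 for mt-Nd4, 0.44 for mt-Nd5, 0.26 for mt-Nd2 and 0.12 for mt-Co1, and the median of the 13 was -0.12. mt-Cytb, the core of complex III, was at 4643, 4722 and 5093 CPM in shCon, against 3473, 3172 and 2959 in shCopa. In mt-Cytb shCon 1 was not above the mean of shCon 2 and 3, unlike in 88 of the 89 nuclear members. The ratio of shCon 1 to that mean was 2.41 in mt-Co2, 2.09 in mt-Nd3, 1.19 in mt-Nd6 and 1.09 in mt-Atp6. In the other mitochondrial genes shCon 1 was below it. Levels of mt-Co3 ran from 52.9 to 403 CPM within shCon and those of mt-Atp6 from 43.5 to 180 CPM within shCopa. Cytochrome c itself (Cycs) was at -0.25 and did not pass (adjusted p = 0.212, edgeR), and it was at -0.09 without shCon 1. Of 45 further assembly factors 5 fell, among them Cox19, which takes part in copper delivery to complex IV (-1.23), and Cox20 (-0.94), and 5 rose, among them Coa7 (0.73), with a median of -0.14. Without shCon 1, 7 fell and 17 rose, with a median of 0.17.

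Of 15 regulators of these genes, Ppargc1a, a coactivator of mitochondrial gene programmes, fell by 0.64, and Myc, Pprc1 and Nrf1 rose, by 2.08, 0.94 and 0.29, while 11 did not pass, with a median of 0.11. Without shCon 1, 2 fell and 5 rose, with a median of 0.10, and these genes were at -0.82, 2.10, 0.82 and 0.31. Myc was at 33.8, 35.0 and 28.7 CPM in shCon and 127, 143 and 141 CPM in shCopa. Nrf1, whose motif was searched above, was at 28.2, 27.1 and 26.3 CPM in shCon, and the shCopa libraries had 33.4, 32.1 and 33.9. Gabpa and Yy1 did not pass, at -0.04 and -0.02. Without shCon 1 Gabpa fell, by 0.18, and Yy1 was at 0.02. In the tricarboxylic acid cycle 4 of 14 enzymes fell and none rose, with a median of -0.15, and without shCon 1 again 4 fell and none rose, with a median of -0.02. Idh2, the NADP-dependent isocitrate dehydrogenase of mitochondria, fell by 1.58 (259, 198 and 194 CPM in shCon, 68.0, 77.3 and 72.6 CPM in shCopa), Idh3b by 1.43 and Suclg2 by 0.52. Without shCon 1 these falls were by 1.44, 1.28 and 0.55. Of 19 genes of protein import and mitochondrial chaperones, Tomm20 fell by 0.47 and Hspd1, Tomm70a and Hspa9 rose, by 0.82, 0.65 and 0.40, with a median of -0.02 over the list. Without shCon 1, 9 of the 19 rose, Tomm40, Tomm5, Timm23, Timm10, Hspe1 and Chchd4 in addition, Tomm20 fell by 0.30, and the median was 0.24. Hspd1, the mitochondrial chaperonin, was at 346, 355 and 363 CPM in shCon, with 610, 610 and 652 CPM in shCopa. Of 6 inner membrane carriers and outer membrane channels 0 passed edgeR with all libraries, with 1 at an unadjusted p under 0.05 and in DESeq2 and 0 in limma-voom, and without shCon 1 Vdac2 fell, by 0.25. The median of the 6 was -0.22 and, without shCon 1, -0.05. Shares called over all genes are those given above, 18.4% lower and 18.2% higher with all libraries and 27.0% and 28.3% without shCon 1.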

How the data were processed

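RNA-seq of 6 libraries was used, 3 shCon and 3 shCopa, grouped by their titles. The authors deposited estimated counts per Ensembl gene; the submitters' processing notes list HISAT2 2.0.5, Trimmomatic, featureCounts, HTSeq and DESeq2, and the build GRCm39. Which program gave the estimated counts, the strand setting and the annotation release are not stated, so reads of near-identical genes may have been divided in ways the counts do not show. All 6 columns matched a title. Symbols from GENCODE M21 were found for 52081 of 55414 identifiers; the rest took 0.201% to 0.464% of a library.

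Counts were rounded and tested across all genes with edgeR 4.0.16 in R 4.3.3 (TMM scaling, filterByExpr, robust quasi-likelihood F test, Benjamini-Hochberg adjustment over 14807 genes, threshold 0.05). A gene is said to rise or fall only past that threshold. Log2 fold changes give shCopa relative to shCon, their SE comes from the F statistic, and CPM are per TMM-scaled library size. The biological coefficient of variation was 0.165, and 3 counts correspond to 0.122 to 0.153 CPM. Chi-square values per degree of freedom were 4.39 to 8.02 for replicate pairs without shCon 1 and 77.9 and 89.7 with it, so no pair agreed within sampling noise.

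Named with values per library were the 3 largest changes past the threshold and the most abundant member of each complex, Sdha to Sdhd, Cyc1, members called higher and isoform pairs, and from each list up to 3 genes past the threshold. Genes named beyond that (Ndufa2, Ndufb6, further assembly factors, Nrf1, Gabpa, Yy1) were chosen after their values were seen. The members and lists were chosen with earlier results of these data known. Simulated counts for these samples held 14508 genes. Recovered were 23.9% of 67 genes changed 1.5-fold, 76.1% of 67 changed 2-fold and 97.0% of 66 changed 4-fold, and 6 of 137 calls were false. The simulated counts held no outlying library such as shCon 1 and far fewer changed genes than were called here, so these rates may not carry over. The alternatives tried were other scaling factors and filters, DESeq2 1.42.0, limma-voom (limma 3.58.1), the replicate number as a block, a stricter threshold, offsets for length and GC content (GENCODE M21, lengths for 99.8% of tested genes) and each library left out in turn. Promoter windows came from RefSeq. Annotation coordinates of GRCm39 were not used here. Values of 1 member are not reported here.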

Additional observations from a re-analysis of the deposited data

How the results depend on the processing

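Of 23 lower and 2 higher members in the main test, the replicate block gave 11 and 1, near the background of all genes (13.1% lower). The labels do not say whether equal replicate numbers pair the libraries. Deviations of same-numbered libraries from their group means correlated at -0.16, -0.06 and -0.11, and those of the other pairs at -0.11 to 0.23. Deviations within a group sum to 0 and shCon 1 stands apart, so these values cannot decide whether the numbers pair the samples. Length and GC offsets gave 57 lower members, the offsets with median lengths 39, and offsets without shCon 1 gave 62 lower and 4 higher, the offsets without shCon 1 and with median lengths having been added after the data were seen. DESeq2 called 43 lower, beside 2973 of all 18385 genes it tested. The threshold of 0.01 left 5 lower and 1 higher, and the share of all genes at that threshold was not counted. The filter of 1 CPM left 1 higher, since Cox6a2 was not tested. Leaving out each library gave 5 (without shCopa 3) to 50 (without shCon 1) lower and 1 to 6 higher; without shCopa 1 and 2 the lower counts were 6 and 8, and without each shCopa library in turn the share of members was below that of all genes (11.6% to 11.8%), whereas without shCon 2 and 3 the counts were 34 and 38. The number of lower calls thus changed with each library left out, in both groups, and was similar whichever shCopa library was missing. The members' median stayed below 0 throughout, from -0.75 to -0.23.

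Of the 23 lower calls, Atp5h, Ndufab1, Ndufb2 and Ndufv1 passed under all 17 alternatives run for single members, and Cox6a1 under 16, missing the threshold without a low-count filter. All 23 were shared by DESeq2, the other size factors of DESeq2 type, the 1 CPM filter, the offsets and the fit without shCon 1, while 6, 8 and 5 were shared without shCopa 1, 2 and 3.

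Signs turned for members that did not pass with all libraries. Leaving out each library in turn, the lowest values came without shCon 3 and the highest without shCon 1 for Ndufa1 (-0.925 to 0.0327), Ndufb3 (-0.491 to 0.0206), Ndufb6 (-0.337 to 0.452), Ndufs3 (-0.541 to 0.0673), Atp5e (-0.788 to 0.0358) and Atp5g1 (-0.577 to 0.101). Ndufs4 ran from -0.212 without shCon 2 to 0.133 without shCon 1, and Uqcrc2 from -0.0534 without shCopa 3 to 0.0665 without shCopa 1, with -0.0024 without shCon 1. With offsets and without shCon 1 the values were 0.31 for Ndufb6, 0.0224 for Ndufs3, 0.0211 for Ndufs4, 0.013 for Ndufs7, 0.12 for Atp5g1 and -0.11 for Uqcrc2. Ndufb6 was at 0.0302 with the block, 0.0126 with offsets and 0.0396 in limma-voom. Uqcrc2 was at -0.0189 without a low-count filter, -0.0484 with offsets and -0.0064 with median lengths. The cause was not tested. Low levels limit what can be said of Cox6a2, Cox6b2 and Ndufaf6.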

Other observations

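The genes beside Cox6a1, Ndufab1 and Cox6a2, taken from the order of genes in RefSeq's annotation of GRCm38.p6 and chosen after the values had been seen, were read for their own values. Beside Cox6a1, Gatc changed by -0.34 (adjusted p = 0.0369, edgeR) and by -0.32 without shCon 1, and Triap1 was at 0.14 but rose by 0.46 without shCon 1 (adjusted p = 0.00107, edgeR). Beside Ndufab1, Ubfd1 changed by -0.39 (adjusted p = 0.0102, edgeR) and by -0.36 without shCon 1, and Palb2, Ears2 and Dctn5 were at 0.26, 0.18 and 0.13 and, without shCon 1, at 0.08, 0.13 and 0.15, and passed in neither fit. For comparison, Cox6a1 was at -1.97 and Ndufab1 at -1.66, and at -1.29 and -1.32 without shCon 1. Beside Cox6a2, Itgad and Itgax had no count in any library, and 9130023H24Rik and Armc5 did not pass, at -0.23 and -0.09 and, without shCon 1, at -0.21 and 0.11.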
